A study of Mus musculus with 11 samples.

Results

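Cell 8 was the only 1 of 10 single Th1 cells whose chromatin was cut with Dpn II, and it was set against cells 7, 9 and 10, which were cut with Bgl II and had similar numbers of contacts. A contact is 2 restriction fragment ends, recorded as joined because they lay near each other in the nucleus. Cell 8 held 11920 contacts with both ends on chromosomes 1 to 19, against 13200 in cell 7, 11426 in cell 9 and 10834 in cell 10, and each map was thinned at random to the smallest of these numbers, 10834 contacts with 21668 ends. The study mapped chromosome contacts by Hi-C in single CD4+ Th1 cells and in a population of them, with build mm9 coordinates. All cells came from spleens of male C57BL/6 mice, were stimulated with anti-CD3 for 3 days, purified with anti-CD4 beads and expanded with IL-2. No genetic change or drug treatment separated the cells, and the enzyme was the one labelled difference. Labels of the cells name no separate mice or cultures, and contact maps hold no expression, so the Th1 label could not be checked against marker genes.

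Restriction enzymes cut DNA at short fixed words, and in Hi-C the cut ends of crosslinked chromatin are joined to their neighbours in space. A short word occurs more often than a long one, so the choice of enzyme sets the places where a contact can be seen. Chromosomes fold into domains, stretches of DNA with many contacts inside them, and into compartments, which sort active, gene-rich chromatin from inactive chromatin. In 1 cell each cut end can be joined to 1 partner on each copy of the chromosome, so a single-cell map is sparse.

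Dpn II reads a word of 4 bases and Bgl II a word of 6 bases that has the Dpn II word in its middle, so that every Bgl II site is also a Dpn II site. The promoter windows of RefSeq (build GRCm38.p6) show how unequally the enzymes can see regulatory DNA. Of 32851 windows of 300 bases, 48.0% held GATC, the Dpn II word, and 7.37% held AGATCT, the Bgl II word. Both words read the same on the 2 strands. Of the 21869 Dpn II words in these windows, 11.6% lay in a Bgl II word. The windows of a pair of genes of Th1 signalling are shown 5′ to 3′ on the plus strand, Ifng, the signature cytokine gene of Th1 cells, at chr10:118440796-118441095 and Ifngr2, a receptor chain for that cytokine, at chr16:91546809-91547108. Capitals mark the words: the Ifng window holds 2 Dpn II words and 0 Bgl II words, and the Ifngr2 window 1 Bgl II word, which is also its 1 Dpn II word. They illustrate the cutting pattern and were not matched to contacts, which are on another build.
Ifng: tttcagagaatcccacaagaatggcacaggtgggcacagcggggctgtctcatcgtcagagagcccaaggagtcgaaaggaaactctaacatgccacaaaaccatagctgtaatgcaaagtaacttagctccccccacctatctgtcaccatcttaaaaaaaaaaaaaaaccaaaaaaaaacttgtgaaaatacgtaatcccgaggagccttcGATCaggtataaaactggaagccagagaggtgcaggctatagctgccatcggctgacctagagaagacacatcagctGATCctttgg
Ifngr2: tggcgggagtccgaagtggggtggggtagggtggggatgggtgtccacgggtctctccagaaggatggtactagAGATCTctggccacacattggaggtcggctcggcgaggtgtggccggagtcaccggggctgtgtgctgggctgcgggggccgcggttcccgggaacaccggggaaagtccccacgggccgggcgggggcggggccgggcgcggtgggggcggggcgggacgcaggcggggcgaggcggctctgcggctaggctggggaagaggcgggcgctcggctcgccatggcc

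Most ends of cell 8 lay away from Bgl II sites. Only 2123 of its 21668 ends (9.80%, 95% Wilson interval 9.41 to 10.2) lay within 4 bp of a Bgl II end seen in the ensemble map, the Bgl II map of a cell population. In the unthinned maps this share was 9.85% in cell 8, against 98.5% in cell 7 and 98.4% in both cells 9 and 10. The median end of cell 8 lay 954 bp from the nearest Bgl II end, against 3 bp in each of the other cells. Ends over 2 kb from any Bgl II end made up 26.5% (25.9 to 27.1) of cell 8, against 0.877% (0.761 to 1.01) in cell 7, 1.01% (0.882 to 1.15) in cell 9 and 0.928% (0.808 to 1.06) in cell 10. Such sequence made up 35.3% of the chromosomes, so cell 8 had ends there less often than that share of sequence. Intervals of over 100 kb between Bgl II sites, 3.01% of the sequence, are counted here, though few ends fell in them in any map. Ends at Bgl II sites, which Dpn II also cuts, stayed in the total. Wilson intervals here and below cover counting error only, and the ends of 1 contact are not independent of each other.

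The length of the interval between neighbouring Bgl II sites separated the maps. Intervals of 10 to 20 kb, 20.05% of the sequence, took 17.3% (16.8 to 17.8) of the ends of cell 8, against 5.59% in cell 7, 5.51% in cell 9 and 5.62% in cell 10. Intervals under 1 kb took 6.04% (5.73 to 6.37) of the ends of cell 8, against 25.3%, 25.97% and 25.2% in cells 7, 9 and 10. An end of a Bgl II cell lies on the border of 2 intervals and was split between them, and up to 100 kb the number per interval varied little with length: 28.02, 32.8, 32.4, 32.8 and 31.7 ends per 1000 intervals of under 1, 1 to 3, 3 to 10, 10 to 20 and 20 to 100 kb in cell 7. In cell 8 the same intervals held 6.68, 20.9, 49.5, 101.5 and 136.8 ends per 1000. The 151 intervals over 100 kb held few ends, 29 in cell 8 (192.1 per 1000), against 6.5, 18.5 and 9.5 in cells 7, 9 and 10 (43.0, 122.5 and 62.9 per 1000). Per length of sequence cell 8 went the other way. It had 14.4 ends per Mb in intervals under 1 kb and 4.99 in those of 20 to 100 kb. Dpn II also cuts the Bgl II sites that border each interval, and short intervals have more borders per Mb. Ends of cell 8 within 4 bp of a Bgl II end, 9.80% of its ends, were kept in these counts. Part of the density in short intervals is therefore built in.

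**Figure D1:**
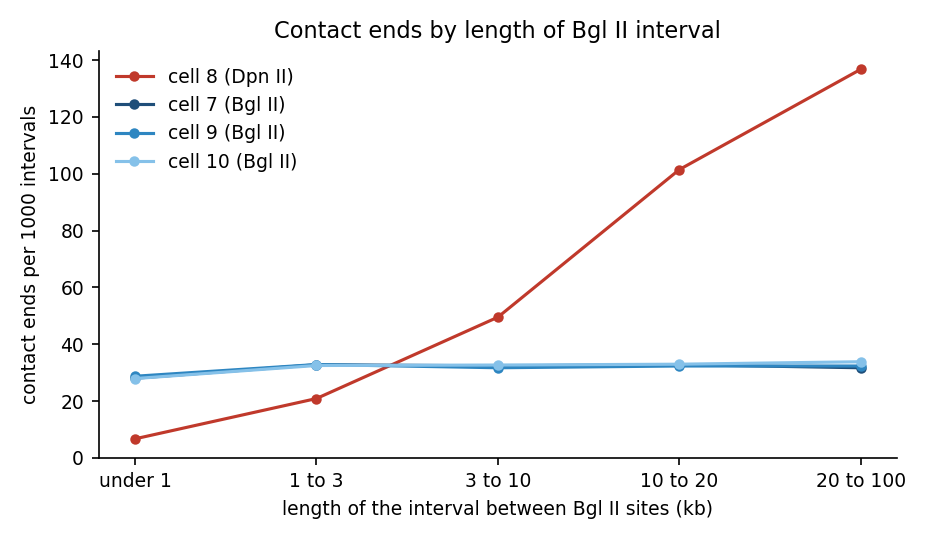
Contact ends per 1000 intervals between neighbouring Bgl II sites (y axis) by interval length in kb (x axis), for cell 8 (Dpn II, red) and cells 7, 9 and 10 (Bgl II, blues), each thinned to 10834 contacts. Cell 8 climbs to 136.8 at 20 to 100 kb, while cell 7 stays between 28.02 and 32.8 and its fellow Bgl II cells lie almost on the same line.

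Cell 8 gave more of its ends to class 1 chromatin than any Bgl II cell. The classes are the 2 signs of the leading eigenvector, taken from the balanced cis map of the ensemble in 1 Mb bins, and class 1 is the side with more fragment ends in that map; genes were not used, so the classes carry numbers and not the compartment names. Of 2368 bins, 879 were class 1. In cell 8, 46.5% (45.9 to 47.2) of ends lay in class 1, against 40.01% (39.4 to 40.7) in cell 7, 39.0% (38.3 to 39.6) in cell 9 and 44.4% (43.7 to 45.0) in cell 10. All 9 Bgl II cells, thinned alike, lay between 39.0% and 44.4%, so cell 8 lay above each of them. The difference from the mean of cells 7, 9 and 10 was 5.40 percentage points, with an SD of those 3 cells of 2.85 points.

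In ends per Mb, cell 8 had 11.4 in class 1 and 7.77 in class 2, a ratio of 1.47 (1.44 to 1.51). The ratio was 1.13 (1.10 to 1.16) in cell 7, 1.08 (1.05 to 1.11) in cell 9 and 1.35 (1.32 to 1.39) in cell 10, and 1.97 in the ensemble. Counted per Bgl II end instead of per Mb, the ratio was 1.28 in cell 8, against 0.983, 0.942 and 1.18 in cells 7, 9 and 10. This result depends on the balancing of the ensemble map. With classes from the unbalanced ensemble map, cell 8 had 58.5% of its ends in class 1, against a mean of 58.8% in the 3 Bgl II cells, a difference of -0.235 points. The unbalanced map put 56.2% of the bins in the same class as the balanced map. Class 1 held 37.1% of bins with balancing and 56.9% without it, so unrelated classes would also agree in many bins. The class results that follow were taken with the balanced map only.

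With 1 Dpn II cell, the enzyme and the cell cannot be told apart. No test over cells was run, since the smallest one-sided p that an exact permutation test can give is 0.25 for 1 cell against 3 and 0.1 for 1 cell against 9. Of 10 summary measures compared, cell 8 lay outside the range of cells 7, 9 and 10 in 9 and outside the range of all 9 Bgl II cells in 6. Without any enzyme effect, a given cell would be highest on a measure with probability 0.25 in the first comparison and 0.1 in the second. It would be lowest as often. The measures also overlap, since several use the same trans contacts, and the distance of ends from Bgl II sites depends directly on the enzyme. These counts are therefore no test of how unusual cell 8 is.

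Site density and class were then read together. The 1 Mb bins were ranked by their Bgl II ends and divided into 5 equal groups, with a mean of 425.3 Bgl II ends per bin in the lowest group and 679.8 in the highest. Cell 8 had 12.1 ends per Mb in the highest group and 6.04 in the lowest, a ratio of 1.997 (1.91 to 2.09). The ratio was 1.73 (1.65 to 1.81) in cell 7, 1.55 (1.49 to 1.62) in cell 9 and 1.98 (1.89 to 2.07) in cell 10, so the intervals of cells 8 and 10 overlapped almost fully. Cell 9 set much of the distance to the mean of the Bgl II cells: the difference was 0.245 with it and 0.145 without it. Coverage over Bgl II density was thus no flatter in cell 8 than in the 3 Bgl II cells.

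Within groups of bins ranked by Bgl II density the class difference remained in cell 8. Its class 1 bins had more ends per Mb than its class 2 bins in each of the 5 groups, with ratios from the lowest density to the highest of 1.23, 1.33, 1.33, 1.26 and 1.15, and all 5 intervals above 1. Cell 7 had 0.864, 0.896, 0.981, 0.989 and 0.965 in the same order, and cell 9 0.901, 1.06, 0.947, 0.939 and 0.960. Cell 10 had 1.15, 1.19, 1.20, 1.14 and 1.13, also above 1 in every group but below cell 8 in all of them. In the ensemble, cut with Bgl II, the ratios were 1.78, 1.73, 1.55, 1.39 and 1.40. Density was not equal within a group: bins held 80 to 491 Bgl II ends in the lowest group and 627 to 868 in the highest. The classes may therefore still differ in density inside a group.

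**Figure D2:**
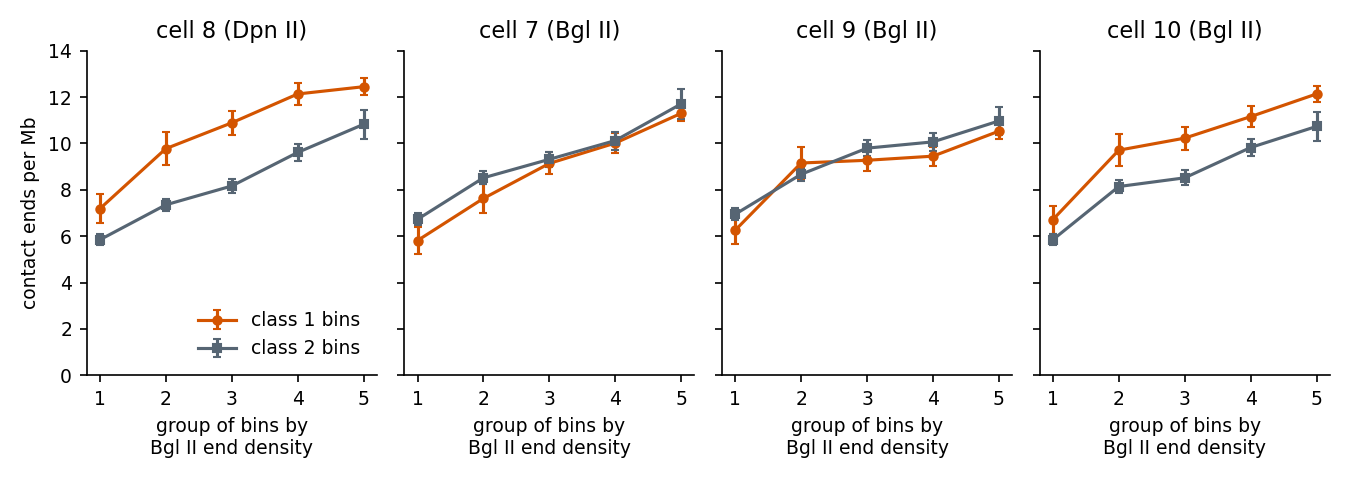
Contact ends per Mb (y axis) in class 1 bins (orange circles) and class 2 bins (grey squares) of the 5 groups of 1 Mb bins by Bgl II end density (x axis, low to high), with cell 8 (Dpn II) leftmost and then cells 7, 9 and 10 (Bgl II); bars are 95% counting intervals. The class 1 line lies above the class 2 line in every group of cells 8 and 10, lies below it in every group of cell 7 and crosses it in cell 9.

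The difference in class was spread over many regions. In bins of 5 Mb, the ratio of cell 8 ends to the mean of cells 7, 9 and 10 had a median of 0.970 over 497 bins with at least 20 ends in those 3 cells, and 10% to 90% of bins ran from 0.705 to 1.37. The ratio was above 1 in 114 bins of mostly class 1, 66.7% of such bins (median 1.13), and in 107 of mostly class 2, 32.8% of such bins (median 0.901). Cell 8 had more ends than each of the 3 Bgl II cells in 132 of the 497 bins (26.6%) and fewer than each in 125 (25.2%). Taken the same way, cell 9 was highest of the 4 in 26.2% of bins and lowest in 21.1%, cell 7 in 22.1% and 22.7%, and cell 10 in 20.5% and 23.7%.

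The largest ratio was at chr7:30000001-35000000, where cell 8 had 42 ends, against 18, 21 and 23 in cells 7, 9 and 10, in a bin with 1600 Bgl II ends where the median bin had 2747. Next were chr7:150000001-155000000, with 33 ends against 13, 24 and 15, and chr7:1-5000000, with 19 ends against 11, 12 and 7. Both are at chromosome 7's tips and only partly covered. At chr5:35000001-40000000 cell 8 had 92 ends, against 46, 51 and 52, a ratio of 1.85 in a bin with 2856 Bgl II ends. The lowest ratio was at chr6:5000001-10000000, with 20 ends in cell 8 against 37, 55 and 46 in cells 7, 9 and 10, a ratio of 0.435. The bins chr16:25000001-30000000, chr1:30000001-35000000 and chr3:110000001-115000000 followed, with 28, 18 and 22 ends in cell 8, against 52 to 58, 28 to 41 and 39 to 45 in the Bgl II cells. In these 8 bins cell 8 did not overlap the Bgl II cells, as the ranking that chose them favours.

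Contacts over very short distances were far more frequent in cell 8. Contacts between ends on 1 chromosome (cis contacts) numbered 8407 in cell 8, against 9307, 9171 and 8888 in cells 7, 9 and 10. Of those in cell 8, 1011 (12.03%, 11.4 to 12.7) spanned under 500 bp, against 40 (0.430%) in cell 7, 47 (0.512%) in cell 9 and 40 (0.450%) in cell 10. The ensemble had 1.58% and the pooled map of Bgl II single cells 0.376%. Intervals between neighbouring Bgl II sites had a median of 2161 bp, while the shorter word of Dpn II occurs more often. The counts were not set against the number of end pairs that each enzyme makes available under 500 bp. How far the spacing of sites sets this difference was therefore not tested. By steps of 100 bp the counts of cell 8 were 216, 326, 273, 141 and 55 below 500 bp, then 20, 10, 14, 2 and 4 up to 1 kb, so that the excess ended near 500 bp. Among unthinned contacts under 1 kb, the median distance was 195 bp in cell 8, against 655, 601 and 635 bp in cells 7, 9 and 10.

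The 1061 contacts of cell 8 under 1 kb lay on all 19 chromosomes, with 101 on chromosome 1 and 22 on chromosome 19. Their 2122 ends were all distinct, as were the 236, 258 and 248 ends of such contacts in cells 7, 9 and 10. Of these ends, 5 of 2122 in cell 8 also took part in another contact. In cells 7, 9 and 10 the numbers were 5 of 236, 7 of 258 and 6 of 248, larger shares than in cell 8. Ends within 4 bp of a Bgl II end made up 16.97% (15.4 to 18.6) of the 2122 ends of cell 8, against 9.02% (8.63 to 9.43) of the ends of its remaining contacts. Their ratio of class 1 to class 2 ends per Mb was 1.25 (1.15 to 1.36), below the 1.4995 (1.46 to 1.54) of the remaining contacts. In cells 7, 9 and 10 the ratio of such contacts was 1.12, 1.05 and 1.28, against 1.13, 1.08 and 1.35 for the remaining ones, with overlapping intervals. Every measure of cell 8 was therefore also taken without contacts under 1 kb.

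From 1 kb to 50 kb cell 8 held fewer contacts than the Bgl II cells. Of cis contacts of 1 kb or more, 3.47% (3.08 to 3.92) spanned 1 to 10 kb in cell 8, against 10.9% in cell 7, 10.6% in cell 9 and 11.3% in cell 10. From 10 to 20 kb the shares were 2.63% in cell 8 and 4.72%, 5.15% and 5.17% in cells 7, 9 and 10, and from 20 to 50 kb 4.40% in cell 8 and 6.64%, 6.72% and 7.50% in cells 7, 9 and 10. Between 100 and 500 kb cell 8 had 13.0% (12.2 to 13.8), against 13.8% (13.1 to 14.5), 13.7% (13.0 to 14.4) and 19.5% (18.7 to 20.3) in cells 7, 9 and 10, so its interval overlapped those of cells 7 and 9 and lay below that of cell 10.

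A count of all cis contacts under 20 kb hid both features. It gave 17.9% (17.1 to 18.8) in cell 8, against 16.7%, 16.98% and 17.6% in cells 7, 9 and 10. Under 50 kb the order turned, with 21.8% in cell 8 against 23.3%, 23.6% and 25.02%. Without contacts under 1 kb, those under 20 kb were 6.10% (5.57 to 6.67) of the rest in cell 8, against 15.6%, 15.8% and 16.5% in cells 7, 9 and 10.

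Of cis contacts of 1 kb or more, far contacts held a larger share in cell 8 than in the 3 depth-matched cells. Such shares add up to the whole, and those under 100 kb were 14.9% in cell 8, against 27.6%, 27.4% and 30.5% in cells 7, 9 and 10. A larger far share follows in part from this. Contacts of 10 to 50 Mb were 32.8% (31.7 to 33.9) of the cis contacts of 1 kb or more in cell 8, against 26.7%, 25.6% and 19.8% in cells 7, 9 and 10. Those of 1 to 10 Mb were 20.6%, against 15.8%, 17.2% and 17.6%. Beyond 50 Mb cell 8 had 12.3% (11.6 to 13.1), against 11.5%, 10.1% and 5.25%. The ensemble had 33.3% at 10 to 50 Mb and 12.3% beyond 50 Mb, close to cell 8, and 3.95% at 1 to 10 kb. At 10 to 20 kb and 20 to 50 kb the ensemble had 1.56% and 2.96%, below the 2.63% and 4.40% of cell 8. Between 100 kb and 10 Mb the slope of contact density against distance on log scales was -0.940 in cell 8, and -1.04, -1.02 and -1.14 in cells 7, 9 and 10. Among all 9 Bgl II cells this did not set cell 8 apart: cell 1 had 36.5% (35.5 to 37.4) at 10 to 50 Mb and a slope of -0.900, and cell 4 had 32.3% and -0.800.

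**Figure D3:**
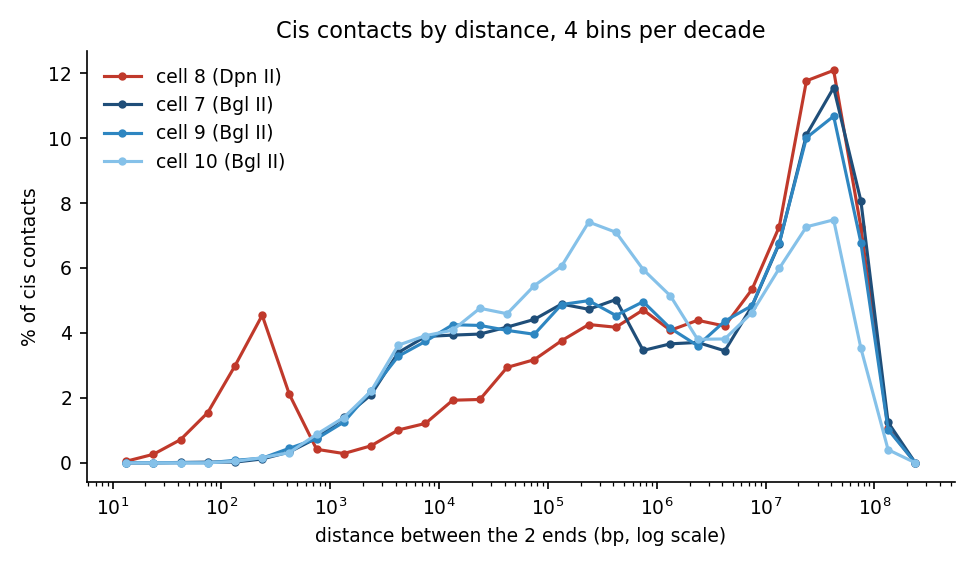
Share of cis contacts in percent (y axis) by distance between the ends in bp (x axis, log scale, 4 bins per decade), for cell 8 (Dpn II, red) and cells 7, 9 and 10 (Bgl II, blues), each thinned to 10834 contacts. Cell 8 has a peak of its own below 500 bp, lies under the Bgl II cells from 1 to 100 kb and meets cells 7 and 9 between 100 kb and 1 Mb.

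Over 50 kb to 1 Mb taken whole, contacts inside domains were slightly scarcer in cell 8. Domains were called on the ensemble map, and of contacts of 50 kb to 1 Mb, 66.9% (64.6 to 69.0) stayed within a domain in cell 8, against 71.5% (69.5 to 73.3) in cell 7, 69.7% (67.8 to 71.6) in cell 9 and 69.7% (68.0 to 71.3) in cell 10. At matched distances cell 8 was not uniformly lower. From 50 to 100 kb it had 93.5%, against 91.8%, 91.1% and 91.8%, and from 250 to 500 kb 63.6%, against 63.2%, 65.3% and 65.1%. At 500 kb to 1 Mb it had 33.4%, against 32.4%, 32.2% and 34.5%. This class made up 461 of the 1729 contacts counted in cell 8, against 410 of 2151, 528 of 2183 and 640 of 2891 in cells 7, 9 and 10. The share over the whole range therefore mixes distances unequally between the cells. Only at 100 to 250 kb did cell 8 lie below all 3, with 82.0% (78.5 to 84.99), against 86.2%, 87.4% and 84.3%, and its interval overlapped that of each.

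Fragment ends of cell 8 rarely had more than 1 partner. Of its 21623 distinct ends, 45 (0.208%, 0.156 to 0.278) took part in more than 1 contact, against 267 of 21401 (1.25%, 1.11 to 1.40) in cell 7, 277 of 21390 (1.29%, 1.15 to 1.46) in cell 9 and 291 of 21376 (1.36%, 1.22 to 1.53) in cell 10. All 9 Bgl II cells, thinned alike, had between 0.632% and 1.36%, so cell 8 lay below each of them. Ends with over 2 partners numbered 0 in cell 8, against 0, 1 and 1 in cells 7, 9 and 10. Ends that lay within 10 bp were then merged, which joins the 2 sides of 1 cut, and the share was 0.310% in cell 8, against 2.08%, 2.08% and 2.28% in cells 7, 9 and 10. The unit differs between the enzymes, since the shorter word of Dpn II leaves more possible ends for the same number of contacts. Dpn II ends of the genome were not counted, so the shares were not set against the ends available.

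Measured over wider stretches of DNA, the gap closed. In windows of 5 kb, 3.02% (2.79 to 3.27) of occupied windows of cell 8 held more than 1 contact that left the window, against 4.10%, 4.29% and 4.33% in cells 7, 9 and 10. In windows of 50 kb the shares were 20.5% (19.9 to 21.2) in cell 8 and 20.2%, 20.4% and 20.7% in cells 7, 9 and 10, with overlapping intervals. In whole intervals between Bgl II sites, cell 8 had 3.44% (3.19 to 3.71) with more than 1 contact. With contacts under 1 kb left out and 10710 contacts kept per cell, cell 8 had 0.225% of ends, 3.16% of 5 kb windows and 22.1% (21.5 to 22.8) of 50 kb windows with more than 1 contact. Cells 7, 9 and 10 then had 1.20%, 1.30% and 1.35% of ends, 4.21%, 4.36% and 4.32% of 5 kb windows and 20.4%, 20.5% and 20.6% of 50 kb windows, so the order at 50 kb was turned.

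The few shared ends of cell 8 had trans partners more often. Of the 89 contacts at its 45 shared ends, 31 (34.8%, 25.7 to 45.2) joined different chromosomes, against 12.6% (10.0 to 15.7), 16.8% (13.9 to 20.2) and 18.3% (15.4 to 21.7) in cells 7, 9 and 10. Of all contacts, 22.4% did so in cell 8, also above the 14.1%, 15.3% and 17.96% of cells 7, 9 and 10. Contacts at 1 shared end are not independent, so these intervals are too narrow. The partners lay within 1 Mb of each other at 5 of the 45 ends (11.1%, 4.84 to 23.5), against 16.1%, 19.1% and 26.1% in cells 7, 9 and 10, so partners were mostly apart in each cell and the interval of cell 8 held the values of cells 7 and 9. The busiest 50 kb window of the 4 maps, picked after its values were seen, was in cell 8 at chr18:55700001-55750000, with 9 contacts, 2 of them to other chromosomes, and cells 7, 9 and 10 had 0 contacts leaving it. That window held 13 Bgl II ends of the ensemble, against 35, 29 and 48 in the windows with most contacts in cells 7, 9 and 10, which held 5, 6 and 6 contacts (in cell 7, 1 of 10 windows with that number).

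**Figure D4:**
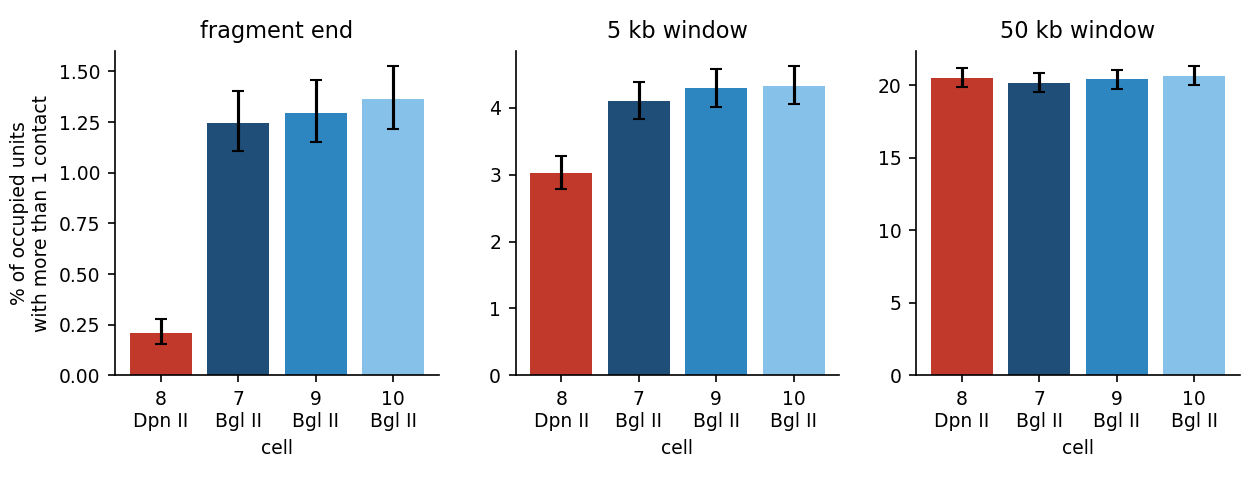
Percent of occupied units with more than 1 contact (y axis, each panel from 0 on its own scale) for single fragment ends, 5 kb windows and 50 kb windows, with cell 8 (Dpn II, red) leftmost and then cells 7, 9 and 10 (Bgl II, blues); bars are 95% Wilson intervals. Cell 8 is far below at single ends (0.208%), nearer at 5 kb (3.02%) and level at 50 kb (20.5%).

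Contacts between different chromosomes (trans contacts) were more frequent in cell 8 than in the depth-matched cells. They were 22.4% (21.6 to 23.2) of contacts in cell 8, against 14.1% (13.5 to 14.8) in cell 7, 15.3% (14.7 to 16.0) in cell 9 and 17.96% (17.3 to 18.7) in cell 10. Among all 9 Bgl II cells the share ran from 7.06% to 25.4%, a range that holds cell 8. Without contacts under 1 kb the share was 24.7% in cell 8, against a mean of 15.9% in cells 7, 9 and 10. Class 1 ends were trans more often than class 2 ends in each map: 25.3% against 19.9% in cell 8, 16.99% against 12.2% in cell 7, 18.3% against 13.5% in cell 9 and 20.1% against 16.3% in cell 10. Of trans contacts, 64.1% (62.2 to 66.0) joined ends of the same class in cell 8, against 69.7% (67.3 to 71.9), 64.5% (62.2 to 66.8) and 66.7% (64.6 to 68.7) in cells 7, 9 and 10, while the shares of ends in each class alone give 50.1% in cell 8.

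The share of ends on each chromosome did not set cell 8 apart. Against the share of Bgl II ends per chromosome, its root mean square difference over 19 chromosomes was 0.276 percentage points, against 0.336, 0.240 and 0.345 in cells 7, 9 and 10. Cell 8 was above the range of cells 7, 9 and 10 on 6 chromosomes and below it on 6, while cell 7, taken the same way, was highest on 6 and lowest on 5, cell 9 on 3 and 4, and cell 10 on 4 and 4. Its highest ratios to the mean of the 3 cells were on chromosome 17, with 3.98% of ends against 3.56%, 3.63% and 3.66%, then chromosome 4 (6.44% against 5.71%, 5.98% and 6.07%) and chromosome 5 (6.59% against 6.03%, 5.93% and 6.35%). The lowest were on chromosome 19, with 2.33% against 2.77%, 2.36% and 2.81%, then chromosome 16 (3.69% against 3.97%, 4.05% and 4.36%) and chromosome 6 (5.77% against 6.44%, 6.37% and 6.06%). The smallest and the largest of these ratios were 0.883 and 1.10. Compared with all 9 Bgl II cells, cell 8 was above the range on chromosomes 17 and 18 and below it on chromosome 15.

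A few chromosome pairs held more trans contacts in cell 8 than the ensemble's shares give. Its 5 leading pairs held 342 of 2427 trans contacts (14.1%, 12.8 to 15.5), against 4.26%, 4.69% and 2.16% at the same pairs in cells 7, 9 and 10 and 3.199% by the ensemble's shares; the pairs were chosen for their excess in cell 8. The trans contacts of each map were set against the share of each chromosome pair in the ensemble, and the pairs were ranked by their excess. Chromosomes 11 and 18 led, with 90 contacts where 12.9 followed from the ensemble's shares, a ratio of 6.98. The same pair had 17, 6 and 4 contacts in cells 7, 9 and 10, where 8.11, 8.83 and 10.3 followed. Chromosomes 4 and 5 came next in cell 8, with 81 contacts where 20.6 followed, against 20, 18 and 9 contacts in cells 7, 9 and 10. Chromosomes 9 and 18 had 62 contacts where 10.8 followed, against 15, 18 and 16 in cells 7, 9 and 10. Chromosomes 9 and 11 had 61 where 22.5 followed, against 8, 33 and 12 in cells 7, 9 and 10. Chromosomes 3 and 17 had 48 where 10.9 followed, against 5, 3 and 1.

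Chromosomes 9, 11 and 18 form 3 pairs, and all 3 were among the 5 leading pairs of cell 8. This trio was noticed after the ranking was seen. It held 213 trans contacts of cell 8 (8.78%, 7.71 to 9.97), against 40 in cell 7 (2.62%), 57 in cell 9 (3.43%) and 32 in cell 10 (1.64%), where the ensemble gives 1.90%. The trans share of each of these chromosomes includes the contacts that chose the trio. In cell 8, 33.3% of the ends on chromosome 18 were in trans contacts, against 17.2%, 19.1% and 18.4% in cells 7, 9 and 10. On chromosome 11 the share was 28.7%, against 15.6%, 17.2% and 18.95%, and on chromosome 9 26.7%, against 16.0%, 16.5% and 21.6%. Outside the trio, chromosome 10 had 27.2% and chromosome 17 26.7% in cell 8, so the share of chromosome 9 was not particular to it.

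**Figure D5:**
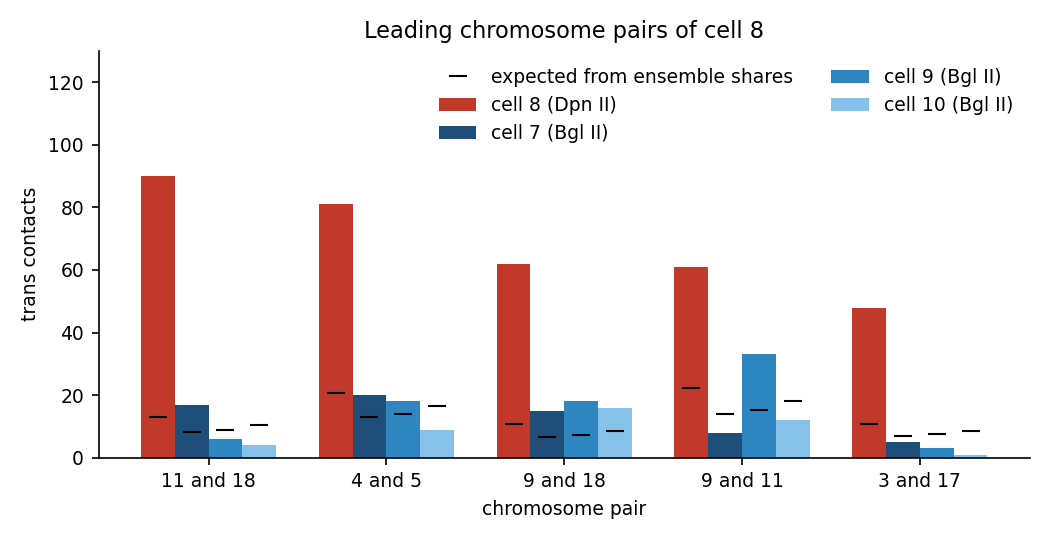
Trans contacts (y axis) of the 5 leading chromosome pairs of cell 8 (x axis), with bars for cell 8 (Dpn II, red) and then cells 7, 9 and 10 (Bgl II, blues), each thinned to 10834 contacts; black dashes are the numbers that follow from each cell's trans total and the ensemble's shares. Cell 8 stands above its dash at all 5 pairs, with 90 contacts between chromosomes 11 and 18, and no other cell has over 33 contacts at any of them.

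Leading pairs of the Bgl II cells were others and held fewer contacts. Cell 7 led with chromosomes 2 and 9 (48 contacts where 14.2 followed), then 1 and 4 (36) and 1 and 14 (31). Cell 9 led with 3 and 18 (29 where 6.72 followed), then 6 and 16 (30) and 1 and 10 (31), and cell 10 with 13 and 17 (35 where 8.23 followed), then 1 and 11 (40) and 10 and 16 (29). None of these 9 pairs was among the 5 of cell 8, which had 22 contacts at chromosomes 2 and 9, 15 at 3 and 18 and 25 at 13 and 17. The lists of cells 7, 9 and 10 shared no pair with each other either. Such short lists, drawn from all chromosome pairs, would seldom share a pair by chance, so the lack of overlap does not set cell 8 apart. The excess of the leading pair was 3.18% of all trans contacts in cell 8, against 2.21%, 1.34% and 1.38% in cells 7, 9 and 10. Among all 9 Bgl II cells it ran from 1.34% to 3.05%, so cell 8 was highest by a small margin. The variance of the counts around the ensemble's shares, over their mean, was 14.6 in cell 8 and 6.19, 4.44 and 5.44 in cells 7, 9 and 10, whose trans totals were lower (2427 in cell 8 against 1527, 1663 and 1946), and this measure grows with the total.

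Within a leading pair the contacts of cell 8 were spread along both chromosomes. Those of chromosomes 11 and 18 fell in 70 of 475 pairs of 5 Mb bins, and the fullest held 3 contacts: chr11:35000001-40000000 with chr18:10000001-15000000, chr11:50000001-55000000 with chr18:80000001-85000000, and chr11:110000001-115000000 with chr18:55000001-60000000. For chromosomes 4 and 5 the fullest pair of bins, chr4:60000001-65000000 with chr5:125000001-130000000, held 4 contacts, the next, chr4:20000001-25000000 with chr5:115000001-120000000, held 3, and chr4:5000001-10000000 with chr5:115000001-120000000 held 2. For chromosomes 9 and 18 they were chr9:30000001-35000000 with chr18:25000001-30000000 (4), chr9:25000001-30000000 with chr18:10000001-15000000 (3) and chr9:25000001-30000000 with chr18:60000001-65000000 (2). Cells 7, 9 and 10 had 0 contacts in these pairs of bins, except 2 of cell 10 in the last. Contacts of chromosomes 11 and 18 had their quartiles at 35.02 and 101.2 Mb on chromosome 11 and at 38.3 and 74.95 Mb on chromosome 18.

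Trans contacts of cell 8 also lay near each other more often than in the 3 depth-matched cells. A neighbour was another trans contact within 1 Mb at both ends. In cell 8, 15.0% (13.6 to 16.4) of trans contacts had one, against 11.1% (9.59 to 12.7), 5.65% (4.64 to 6.87) and 12.2% (10.8 to 13.8) in cells 7, 9 and 10. This share grows with the number of trans contacts, which was not matched: 2427 in cell 8, against 1527, 1663 and 1946 in cells 7, 9 and 10. The difference from the mean of these cells was 5.31 points, and 3.31 without cell 9. All 9 Bgl II cells ran from 5.65% to 16.9%, a range that holds cell 8. With neighbouring contacts counted as 1, the variance over the mean of the pair counts was 12.5 in cell 8, against 5.74, 4.19 and 4.83.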

How the data were processed

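Hi-C contacts of cell 8 (Dpn II) and cells 7, 9 and 10 (Bgl II) were compared, with the other 6 Bgl II cells, the pooled map and the ensemble map as background. Each deposited line is 1 contact and holds the genomic position of both ends in bp, per the file headers, with no number of reads. Positions are on mm9 (from the submitters' processing notes). How reads were aligned and filtered is not given in the sources used here. Per the labels' protocols, single-cell libraries were cut with Alu I and size-selected before sequencing.

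Cell 10 had 10834 contacts on chromosomes 1 to 19, fewer than the number first set for thinning, so every cell was thinned to 10834 by a seeded draw. Bgl II ends and sites (1316203 ends, 692524 sites) were taken from the ensemble's contact ends. Classes came from the first eigenvector at 1 Mb after 50 rounds of balancing, and domains from insulation minima at 50 kb with a window of 500 kb. Shares have 95% Wilson intervals. Computation was in Python 3.11.15 (numpy 2.4.6, pandas 2.3.3, scipy 1.17.1), and plots were drawn in matplotlib 3.10.9. The measures were checked on a simulated map with planted values. No identical contact was shared between cell 8 and the other 3 cells.

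Named regions follow a rule: the 5 leading chromosome pairs of cell 8 and 3 of each Bgl II cell, the 3 fullest pairs of 5 Mb bins in the first 3 of cell 8, the 4 highest and 4 lowest 5 Mb bins, and the 3 highest and 3 lowest chromosomes. Cells, measures and lists were chosen with earlier results of these data known. Alternatives tried were no thinning, another draw, X included, all 9 Bgl II cells, each Bgl II cell left out and other sizes and distances.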

Additional observations from a re-analysis of the deposited data

Results flagged for a closer look

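In cell 8, 3 contacts had an end on mitochondrial DNA, while cells 7, 9 and 10 and the other Bgl II cells listed 0; these contacts entered no comparison. Cell 6, a Bgl II cell outside the depth-matched set, stood apart from the other 8 Bgl II cells in the share of ends per chromosome, with a root mean square difference of 0.621 percentage points from the Bgl II share. It was the one such value in 10 sets of 9 cells; chance gives such a value in about 1 in 20 sets, so 1 among 10 sets is not unusual.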

How the results depend on the processing

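Over 90 alternatives for the 10 measures, 77 kept the direction of cell 8 minus the Bgl II mean and moved it by less than 1 SD of the Bgl II cells, 10 moved it further in the same direction or towards 0, and 3 turned it. Values are differences in percentage points, except for the ratio of the density groups, where they are differences of ratios. Ends in class 1 turned to -0.235 with classes from the unbalanced map, and cis contacts under 20 kb (0.844) to -2.17 when counted under 50 kb and to -9.95 without contacts under 1 kb, an alternative added after seeing the data. The cause of the class reversal was not tested. Counted under 10 kb the last measure was 3.50, and against all 9 Bgl II cells 1.42. Ends over 2 kb from a Bgl II end (25.6) became 25.8 with X, 26.2 without contacts under 1 kb and 4.62 at over 5 kb. Ends with more than 1 partner (-1.09) became -1.18 without thinning, -0.768 against all 9 cells and -1.84 with ends merged. Trans share (6.60) became 8.80 without contacts under 1 kb, and the leading pair (1.53) 0.932 against all 9 cells. Leaving out 1 Bgl II cell at a time kept all 10 directions. It gave a difference of 0.145 to 0.356 in the ratio of the highest to the lowest density group, with the lowest value without cell 9. For trans contacts with a neighbour the difference was 3.31 to 6.60. For chromosome shares it was -0.0643 to -0.0115, where the value was -0.0307 with all 3 cells. With about 10834 contacts per cell, a 5 Mb bin holds too few ends for small differences to be seen. No paired analysis was possible because the labels link cell 8 to no particular Bgl II cell.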
